A study of Mus musculus with 16 samples.

Results

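Expression of 10 genes was examined in liver and in eWAT, the white fat depot of the labels, from mice with obese or lean fathers. These genes encode inhibitors of the ERK mitogen-activated protein (MAP) kinase pathway or the atypical MAP kinases ERK3 and ERK4. The genes were Spry1, Spry2, Spry4, Spred1, Spred2, Dusp4, Dusp5, Dusp6, Mapk4 and Mapk6, found by their annotated symbols, and they are 10 of 19505 named genes on the array. Each was read by 1 probe set. The set was chosen on these data, because Spry4 had differed in opposite directions between the tissues and Mapk4 had been higher in eWAT of offspring of obese fathers. Differences between offspring groups are therefore given for these genes as a description, without a test, and comparisons that the choice did not use are tested.

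All samples came from C57BL/6J males, an inbred laboratory strain, killed at 14 weeks of age, and all these had control mothers. In the F1 groups the father was obese, after 12 weeks on high-fat food (45% lipid) begun at the age of 8 weeks. In the CT groups the father had eaten chow over the same period. The 4 groups, Liver F1, Liver CT, eWAT F1 and eWAT CT, held 4 arrays each. The 4 samples of each group are labelled biological replicates, but the labels do not state the offspring's diet, the father of each animal, its litter, or whether a liver and an eWAT sample came from the same animal. A p-value therefore reflects only how much these samples varied, and samples of 1 litter would count as separate. The labels name no transgene or mutation.

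Growth factors that bind receptor tyrosine kinases switch on Ras, which starts a cascade of kinases ending in the MAP kinases ERK1 and ERK2. ERK in turn induces its own inhibitors: Sprouty proteins act between the receptor and Raf, Spred proteins recruit neurofibromin to inactivate Ras, and dual-specificity phosphatases (Dusp) remove the activating phosphates from MAP kinases. Because several of these inhibitors are made in response to ERK, their transcripts are widely read as markers of pathway output. Mapk4 and Mapk6 encode the atypical MAP kinases ERK4 and ERK3, which partner with the kinase MK5 and are not substrates of the usual MAP kinase kinases. In liver and adipose tissue the pathway relays signals from epidermal and fibroblast growth factors and insulin.

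The deposited values are log2 intensities after RMA normalization, and a difference of 1 is a 2-fold change of the array signal. The median over all probe sets lay between 6.34 and 6.56 in eWAT libraries but between 5.21 and 5.24 in liver libraries, so the tissues did not share 1 scale. Levels are compared between tissues only after a common normalization. The adipocyte marker list had a median of 17.76 to 18.03 in eWAT F1 and 17.80 to 17.93 in eWAT CT, against 5.50 to 6.74 in the liver libraries. The hepatocyte list had a median of 19.87 to 19.92 in the liver libraries. In eWAT the hepatocyte median varied widely, with 12.23, 14.80, 11.60 and 15.75 in F1 and 8.70, 7.41, 14.30 and 14.27 in CT. All 8 of its genes had a higher mean in eWAT F1, with a median difference of 2.15. Seminal vesicle markers reached a median of 11.16 in eWAT F1 1, against 2.72 to 3.32 in the other eWAT libraries, and testis markers reached 9.34 in eWAT CT 4, against 2.98 to 3.27. Exocrine pancreas markers stood at 12.55 in Liver F1 4, against 4.10 to 5.32 in the other liver libraries.

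Spry4, a Sprouty protein that blocks growth factor signalling to ERK, had the most divergent pattern. In liver it measured 7.66, 8.67, 8.61 and 7.87 in F1 and 7.29, 6.23, 6.23 and 6.76 in CT. Every F1 liver lay above every CT liver. The means were 8.20 ± 0.51 in Liver F1 and 6.63 ± 0.51 in Liver CT (SD, n = 4 each), a difference of 1.58 ± 0.31 (SE), or 2.98-fold. In eWAT the order turned round, with 8.33, 9.20, 9.05 and 9.37 in F1 and 10.38, 10.60, 10.75 and 10.19 in CT. Every F1 fat sample lay below every CT one. The means were 8.99 ± 0.46 in eWAT F1 and 10.48 ± 0.25 in eWAT CT (SD, n = 4 each), a difference of -1.49 ± 0.24, so that the F1 signal was 2.81-fold lower. Among the genes kept in each tissue these differences ranked 44 from the highest of 14772 in liver and 20 from the lowest of 14766 in eWAT.

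The plot of all values shows that the SD of Spry4 within a group was smaller than the difference between the group means in both tissues. Without any 1 of its libraries the difference stayed between 1.42 and 1.80 in liver and between -1.62 and -1.27 in eWAT. The paternal difference in liver minus that in eWAT was 3.07 ± 0.41.

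**Figure D1:**
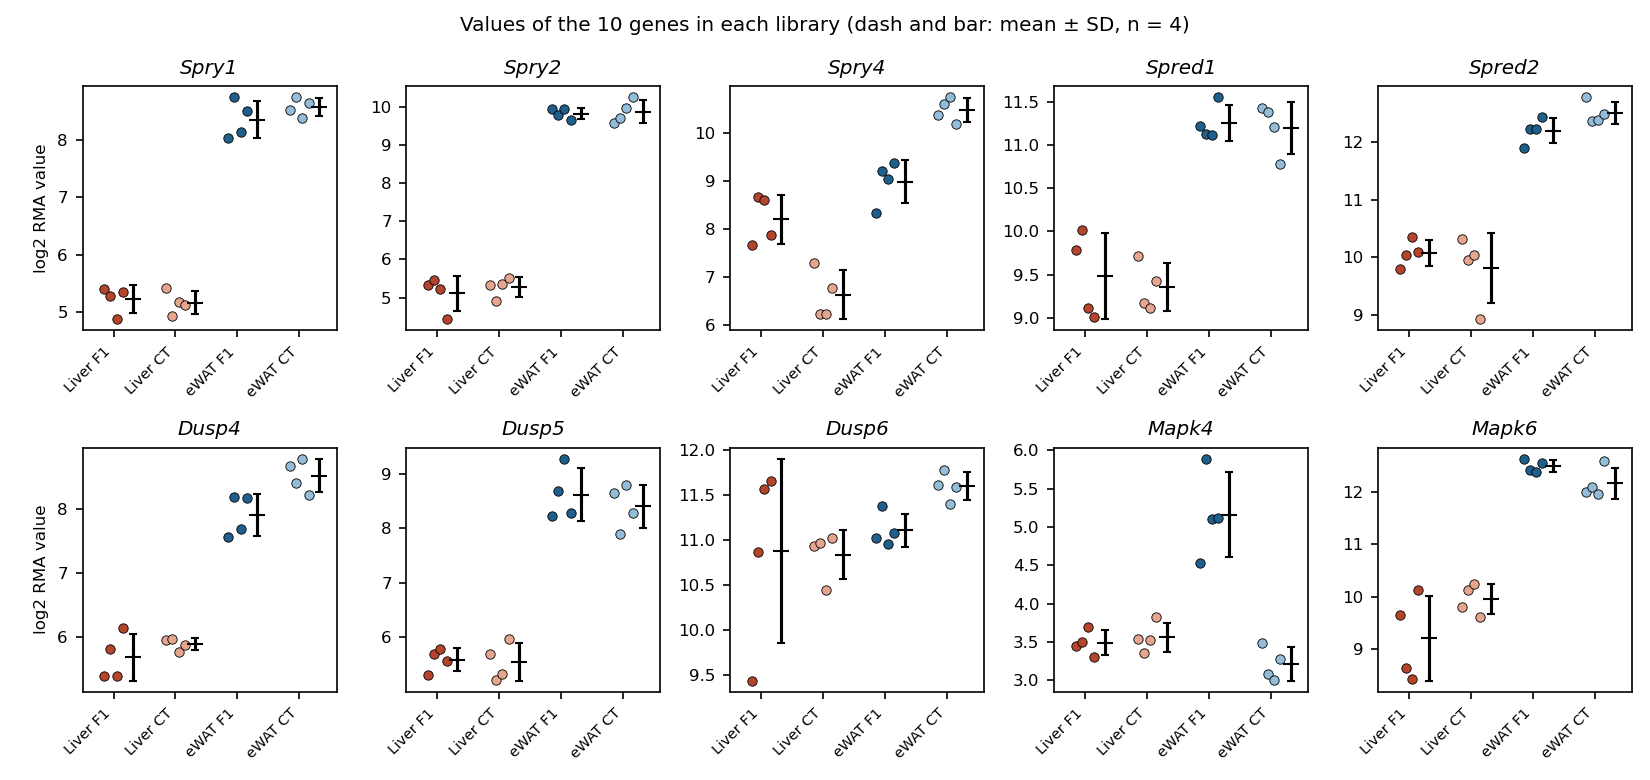
Deposited log2 value of each of the 10 genes in each of the 16 libraries, with 1 panel per gene, points for libraries, and a dash and bar for the group mean ± SD (n = 4). Spry4 lies between 7.66 and 8.67 in Liver F1 above all Liver CT values, and between 8.33 and 9.37 in eWAT F1 below all eWAT CT values.

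The other Sprouty genes did not share this pattern. Spry1 and Spry2 are close relatives of Spry4 that also act between receptor and Raf. Spry1 measured 5.41, 5.28, 4.88 and 5.35 in Liver F1 and 5.42, 4.93, 5.17 and 5.13 in Liver CT, where the groups overlapped, with a difference of 0.07 ± 0.17. In eWAT it measured 8.04, 8.75, 8.14 and 8.50 in F1 and 8.53, 8.75, 8.39 and 8.65 in CT, again overlapping, with a difference of -0.22 ± 0.19. Spry2 differed by -0.16 ± 0.24 in liver and by -0.05 ± 0.19 in eWAT. With 1 library left out, the liver difference of Spry2 ran from -0.29 to 0.06. The highest was without Liver F1 4, the library with exocrine pancreas transcripts. Its F1 livers ran from 4.44 to 5.45 and its CT livers from 4.91 to 5.51, and its eWAT values ran from 9.64 to 9.94 in F1 and from 9.56 to 10.25 in CT.

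Spred1 and Spred2 encode membrane-linked inhibitors of Ras. Spred1 ran from 9.01 to 10.02 in Liver F1 and from 9.11 to 9.72 in Liver CT, a difference of 0.12 ± 0.25. In eWAT it ran from 11.12 to 11.56 in F1 and from 10.78 to 11.43 in CT, a difference of 0.06 ± 0.19. The groups overlapped in both tissues. Spred2 differed by 0.26 ± 0.28 in liver, where Liver CT 4 stood lowest at 8.93 and the other 7 livers lay between 9.80 and 10.35. In eWAT Spred2 measured 11.90, 12.23, 12.22 and 12.43 in F1 and 12.78, 12.36, 12.38 and 12.49 in CT, a difference of -0.31 ± 0.17. Only the highest F1 value reached into the CT range.

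The Dusp genes are considered next. Dusp6 removes phosphate from ERK in the cytoplasm, Dusp5 does so in the nucleus, and Dusp4 is a nuclear phosphatase of ERK and other MAP kinases. The 250 bases upstream of the start site are shown for Dusp6 and Dusp5, because both are ERK-induced phosphatases, of which Dusp6 but not Dusp5 had F1 and CT values in eWAT that did not overlap. They come from RefSeq on build GRCm38.p6, both on the + strand, at chr10:99262981-99263230 for Dusp6 and chr19:53528895-53529144 for Dusp5, and are written 5′ to 3′. Capitals mark a CCAAT box in Dusp6 (read here on the opposite strand) and a pair of adjacent CArG boxes, the element bound by serum response factor, in Dusp5.
Dusp6: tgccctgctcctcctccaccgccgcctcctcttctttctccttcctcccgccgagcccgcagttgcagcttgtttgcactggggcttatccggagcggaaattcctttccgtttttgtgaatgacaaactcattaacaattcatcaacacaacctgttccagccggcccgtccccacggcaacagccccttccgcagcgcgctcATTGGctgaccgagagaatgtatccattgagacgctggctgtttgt
Dusp5: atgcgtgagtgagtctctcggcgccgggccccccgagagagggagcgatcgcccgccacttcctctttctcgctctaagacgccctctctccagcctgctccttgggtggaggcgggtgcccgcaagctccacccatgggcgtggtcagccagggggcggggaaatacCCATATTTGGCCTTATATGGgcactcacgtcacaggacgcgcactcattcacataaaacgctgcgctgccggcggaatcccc
Upstream windows were matched for 7 of the 10 genes, but not for Spry4, Mapk4 and Dusp4, which were not searched. In the matched windows 5 motifs were searched on both strands with overlaps allowed. The CArG box was found upstream of 1 of the 7 genes, Dusp5, at -82 and -72 bases from the start site, and in 1.47% of all 32851 windows. CCAAT was found for 2 genes, Spry1 at -244 and Dusp6 at -46, and in 33.8% of windows. The ETS motif CCGGAAG, the CRE motif TGACGTCA and the AP-1 motif TGANTCA were found for 0 of the 7, against 6.91%, 1.55% and 6.75% of windows.

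Dusp6 measured 11.02, 11.37, 10.95 and 11.08 in eWAT F1 and 11.61, 11.78, 11.40 and 11.59 in eWAT CT. Every F1 value lay below every CT value. The means were 11.11 ± 0.18 in eWAT F1 and 11.59 ± 0.16 in eWAT CT (SD, n = 4 each), a difference of -0.49 ± 0.16, or 1.40-fold lower in F1. In liver Dusp6 measured 9.44, 10.87, 11.56 and 11.65 in F1 and 10.93, 10.96, 10.44 and 11.02 in CT, so that F1 held both the lowest and the highest values. The liver difference of 0.04 ± 0.43 rested on single libraries, being 0.52 without Liver F1 1 and -0.21 without Liver F1 4.

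Dusp4 in eWAT measured 7.56, 8.20, 7.69 and 8.18 in F1 and 8.69, 8.42, 8.80 and 8.22 in CT. The groups did not overlap, though 8.20 in F1 and 8.22 in CT nearly met, and the difference was -0.63 ± 0.21, or 1.54-fold lower in F1. In liver Dusp4 ran from 5.38 to 6.14 in F1 and from 5.76 to 5.96 in CT, a difference of -0.21 ± 0.19. Dusp5 overlapped in both tissues, with differences of 0.04 ± 0.20 in liver and 0.22 ± 0.28 in eWAT. Its eWAT values ran from 8.23 to 9.28 in F1 and from 7.90 to 8.79 in CT.

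Mapk4, which encodes ERK4, was near background in most libraries. In eWAT it measured 4.53, 5.89, 5.10 and 5.12 in F1 and 3.49, 3.08, 3.01 and 3.28 in CT. Every F1 value lay above every CT value, and only CT 1 of the CT libraries passed the dim limit of 3.47, the mean of the eWAT libraries' 25th percentiles. The means were 5.16 ± 0.56 in eWAT F1 and 3.21 ± 0.22 in eWAT CT (SD, n = 4 each), a difference of 1.94 ± 0.27, or 3.85-fold. Since the CT mean was below the dim limit, the fold is a measure of the array signal and the transcript's own ratio is not fixed by it. Mapk4 passed the filter only through its F1 values. In liver it measured 3.45, 3.50, 3.70 and 3.31 in F1 and 3.54, 3.36, 3.53 and 3.82 in CT, all below the liver limit of 3.90.

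Mapk6, which encodes ERK3, was bright in both tissues. In liver it measured 9.65, 8.63, 8.43 and 10.12 in F1 and 9.81, 10.13, 10.24 and 9.62 in CT. Livers F1 2 and F1 3, which had the highest Spry4 values, had the lowest Mapk6 values, and the other 2 F1 livers lay within the CT range. The difference was -0.74 ± 0.36, with -1.05 without Liver F1 4, the library with exocrine pancreas transcripts, and -0.48 without Liver F1 3. In eWAT Mapk6 measured 12.64, 12.42, 12.39 and 12.56 in F1 and 12.01, 12.09, 11.96 and 12.60 in CT, a difference of 0.34 ± 0.18. The CT 4 sample lay within the F1 range, and the other 3 CT samples lay below all F1 samples.

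Counted over the 10 genes, 9 passed the dim filter in liver and 0 of these were called at an adjusted p under 0.05 in limma, against 0.156% of all 14772 genes. The F1 and CT livers did not overlap for 1 gene, Spry4, which was higher, against 2.68% of all genes that were higher without overlap. In eWAT all 10 passed and 0 were called, against 0% of 14766 genes, 1475 of which had an unadjusted p under 0.05. Groups in eWAT did not overlap for 4 of the 10, with Mapk4 higher and Spry4, Dusp4 and Dusp6 lower in F1, against 2.91% of all genes higher and 3.01% lower without overlap. For the paternal difference in liver minus that in eWAT, 2 of the 10, Spry4 and Mapk4, were called, against 0.0795% of 15090 genes. These are the genes for which the set was chosen. Since the genes were chosen on these contrasts, the counts describe the choice and do not test it. The median difference of the kept genes was 0.04 in liver and -0.14 in eWAT, and the median over all genes was 0 in both.

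**Figure D2:**
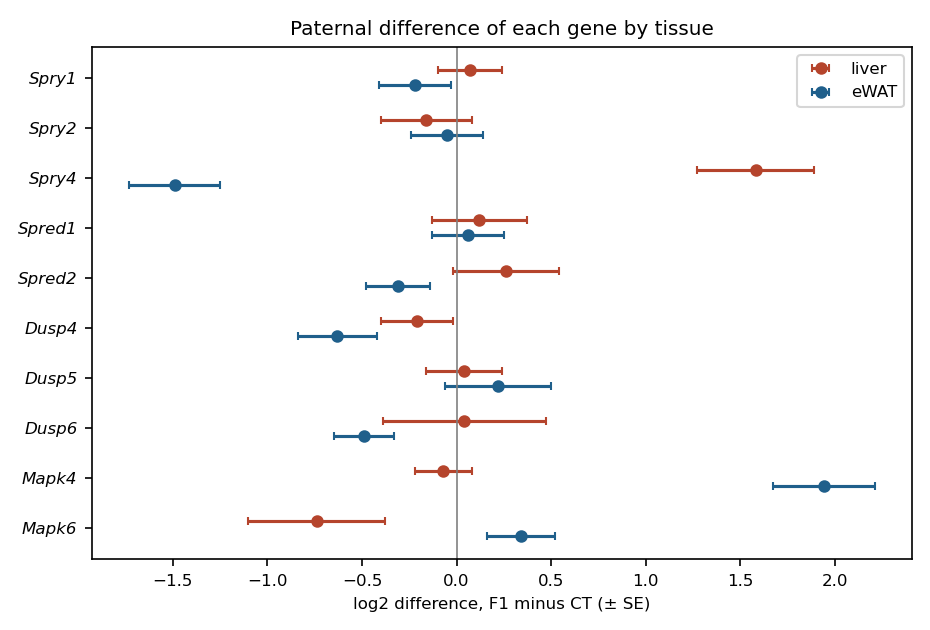
Difference between F1 and CT offspring on the log2 scale for each of the 10 genes, with liver in red above eWAT in blue and bars of 1 SE from limma. Spry4 lies at 1.58 in liver and -1.49 in eWAT, Mapk4 at 1.94 in eWAT, and Mapk6 at -0.74 in liver.

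Because hepatocyte transcripts varied between eWAT libraries, the differences were also taken within subsets of these. In the 4 eWAT libraries with the lowest hepatocyte medians (F1 1, F1 3, CT 1 and CT 2) the Spry4 difference was -1.80 ± 0.32, and in the 4 with the highest (F1 2, F1 4, CT 3 and CT 4) it was -1.19 ± 0.29. The same subsets gave 1.53 ± 0.31 and 2.36 ± 0.34 for Mapk4. For Dusp4 they gave -0.93 ± 0.25 and -0.32 ± 0.29, and for Dusp6 -0.71 ± 0.25 and -0.27 ± 0.25. A further subset left out eWAT F1 1 and CT 4, the libraries with seminal vesicle or testis transcripts. Without them Spry4 differed by -1.37 ± 0.19 and Mapk4 by 2.18 ± 0.27. Dusp4 differed by -0.61 ± 0.22 and Dusp6 by -0.46 ± 0.20. These subsets were chosen after the data were seen. Since the F1 and CT values of these 4 genes did not overlap, no subset could turn a direction, and only the sizes are informative. Neither hepatocyte subset equalised the hepatocyte medians. In the lowest libraries these were 12.23 and 11.60 in F1 and 8.70 and 7.41 in CT. In the highest they were 14.80 and 15.75 in F1 and 14.30 and 14.27 in CT. The part of hepatocyte transcripts in the differences was not tested.

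Markers of other cell types in eWAT differed in both directions. Of 11 macrophage markers 10 had a lower mean in F1, with a median difference of -0.39, and library medians of 11.59 to 12.82 in F1 and 12.28 to 12.98 in CT. Of 8 endothelial markers 7 had a lower mean in F1, with a median difference of -0.19, as did 6 of 7 fibroblast markers, with -0.12. Of 7 lymphocyte markers 5 had a higher mean in F1, with a median difference of 0.31, as did 5 of 7 adipocyte markers, with 0.05. The 6 mesothelial markers were split evenly, with a median difference of 0.10. Of 8 skeletal muscle markers 7 had a lower mean in F1, with a median difference of -0.61. Their library medians were low, at 3.58 to 4.16 in F1 and 4.06 to 5.66 in CT. The part of these cell types in the lower Spry4, Dusp4 and Dusp6 values was not tested. In bulk tissue fewer cells of a type and less RNA per cell cannot be told apart.

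**Figure D3:**
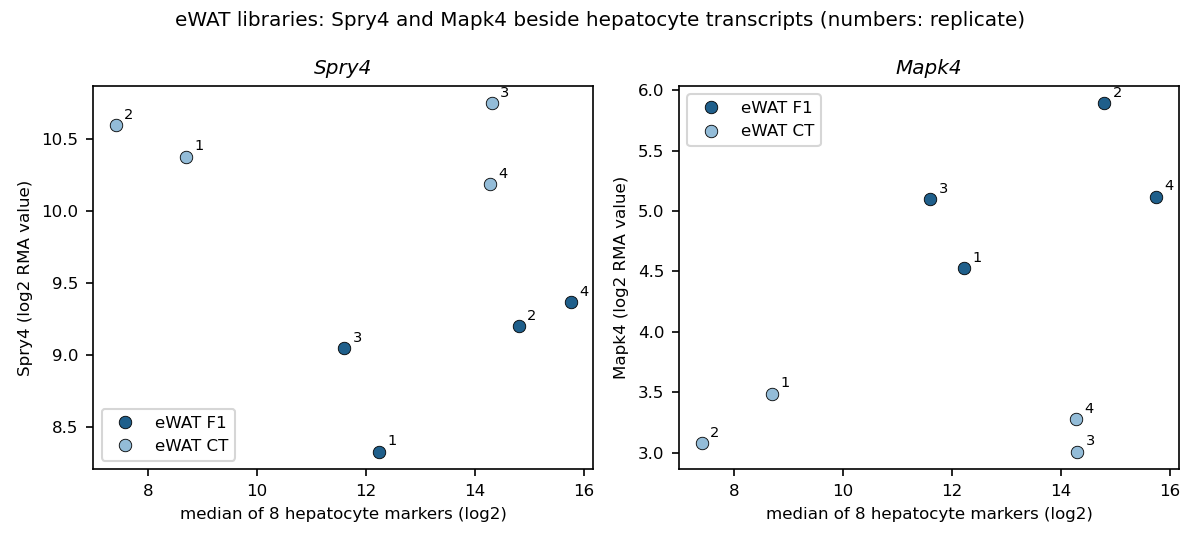
Log2 values of Spry4 and Mapk4 in the 8 eWAT libraries against the median of the hepatocyte marker list in the same library. Spry4 is lower and Mapk4 higher in every F1 library than in every CT library, at hepatocyte medians of 11.60 to 15.75 in F1 and 7.41 to 14.30 in CT.

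Liver was next compared with eWAT within the CT offspring, after quantile normalization over the 16 libraries. The CT values of Spry4 and Mapk4 entered the contrasts on which the set was chosen, so these 2 genes are described without a test. Of the 8 remaining genes 7 were lower in liver, against 34% of all genes called lower and 66.2% called in either direction. Spry2 had the largest gap of these 8 genes, with means of 5.90 ± 0.34 in Liver CT and 9.27 ± 0.33 in eWAT CT (SD, n = 4 each), a difference of -3.37 ± 0.23 (limma, adjusted p = 2.42e-07). Spry1 differed by -2.18 ± 0.19 (limma, adjusted p = 1.64e-06). Spry4 averaged 7.32 ± 0.50 in Liver CT and 9.93 ± 0.26 in eWAT CT, and Mapk4 was too dim to be kept.

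Spred2 differed by -1.84 ± 0.26, Dusp5 by -1.55 ± 0.26, Mapk6 by -1.32 ± 0.22, Dusp4 by -1.30 ± 0.18 and Spred1 by -0.78 ± 0.21. These 5 adjusted p-values in limma ran from 7.89e-05 for Dusp4 to 0.00738 for Spred1, and in none of the 7 genes did a liver value reach an eWAT value, against 31.6% of all genes lower without overlap. Dusp6 was the exception, with 11.29 ± 0.27 in Liver CT and 11.14 ± 0.17 in eWAT CT, a difference of 0.14 ± 0.19 (limma, adjusted p = 0.522). On the deposited scale Dusp6 was lower in liver, at -0.76 ± 0.18 (limma, adjusted p = 0.00317; 0.00317 to 0.778 over the alternatives). That scale puts the median of all genes at -0.79. Its calls over all genes were 2787 higher and 8461 lower in liver, against 4891 and 5164 after quantile normalization, and 6871 and 4040 with each library centred on its median. The 7 genes lower in liver were called on all 3 scales.

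**Figure D4:**
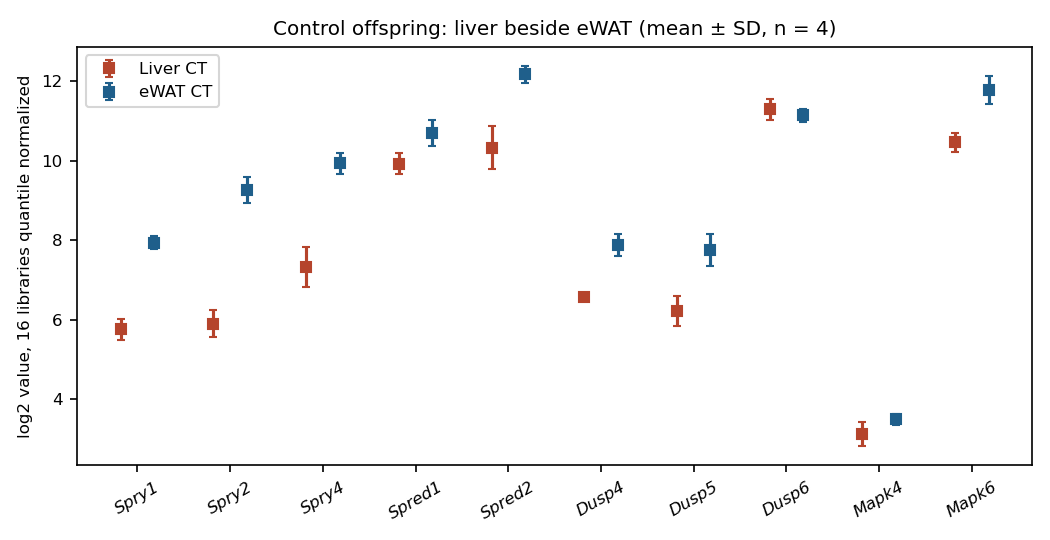
Mean and SD of each gene in Liver CT (red) and eWAT CT (blue), n = 4 each, as log2 values after quantile normalization over the 16 libraries. Levels are comparable within a gene only, and Spry2 lies at 5.90 in liver and 9.27 in eWAT while Dusp6 lies at 11.29 in liver and 11.14 in eWAT.

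On the common scale Spry4 averaged 8.82 ± 0.51 in Liver F1 and 8.34 ± 0.47 in eWAT F1 (SD, n = 4 each). The F1 values overlapped between the tissues, at 8.27 to 9.28 in liver and 7.65 to 8.71 in eWAT, whereas the CT values did not, at 6.93 to 7.96 in liver and 9.62 to 10.22 in eWAT. On the deposited scale the F1 means were 8.20 in liver and 8.99 in eWAT, and the direction of this gap depends on the scale.

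Whether Spry4 varied together with the other 9 genes among animals of the same group was asked on deviations from the group means, over 8 libraries a tissue. None of the 9 relations passed adjustment in either tissue. In liver, Mapk6 ran against Spry4, with r = -0.78 (exact permutation test over pairings, two-sided p = 0.0264, adjusted p = 0.182) and rho = -0.68 (p = 0.0717, adjusted p = 0.323, exact). Dusp5 ran with it, with r = 0.76 (exact permutation p = 0.0404, adjusted p = 0.182) and rho = 0.74 (p = 0.0422, adjusted p = 0.323, exact). Without the 2 libraries farthest from the median these r were -0.86 and 0.85. In eWAT, Dusp4 ran with Spry4, with r = 0.78 (exact permutation p = 0.0151, adjusted p = 0.136) and rho = 0.86 (p = 0.0107, adjusted p = 0.0964, exact), and r was 0.49 without the 2 farthest libraries. Deviations within a group of 4 sum to 0 and are not fully independent. Among 15089 genes, those with deviations most like Spry4 over all 16 libraries were Prrx2 (r = 0.81), Abca3 (r = 0.80) and Foxj3 (r = 0.80). These are the highest of many correlations and are given as a description. By tissue, r was 0.84 in liver and 0.77 in eWAT for Prrx2, and 0.76 and 0.88 for Abca3. For Foxj3 it was 0.99 in liver and 0.41 in eWAT. No such genes are named for Mapk4, which lay below the dim limit in all 8 livers and in 3 of 4 eWAT CT libraries.

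The surrounding pathway was read from 6 lists with 115 genes, of which 104 were on the array. In liver 0 of the 96 kept genes were called in limma, and 16 (16.7%) had an unadjusted p under 0.05, 6 higher and 10 lower in F1, against 9.12% of all genes. In eWAT 0 of 99 were called and 17 (17.2%) had an unadjusted p under 0.05, 6 higher and 11 lower, against 9.99% of all genes. The difference between tissues gave 0 calls among 102 genes, against 0.0795% of 15090 genes, and 15 (14.7%) had an unadjusted p under 0.05, against 9.79% of all genes. The lists were chosen with earlier results known, and the expression of genes in 1 pathway is not independent.

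Among ligands, 15 of 23 kept genes had a lower mean in Liver F1, with 4 at an unadjusted p under 0.05, all lower. Betacellulin (Btc), an epidermal growth factor receptor ligand, differed by -0.62 ± 0.19 (limma, adjusted p = 0.343). In eWAT 13 of 22 were lower. Nrg4, an adipose-secreted ligand of ErbB receptors, ran from 14.53 to 14.94 in F1 and from 13.60 to 14.11 in CT, a difference of 0.83 ± 0.17 (limma, adjusted p = 0.362). Hgf, the ligand of Met, ran from 9.18 to 9.44 in F1 and from 9.65 to 10.08 in CT, a difference of -0.59 ± 0.16 (limma, adjusted p = 0.374). Neither passed the test, though the groups did not overlap for either gene.

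Among receptors, 10 of 19 had a higher mean in Liver F1 and 11 of 19 in eWAT F1. The epidermal growth factor receptor Egfr differed by 0.97 ± 0.35 in liver (limma, adjusted p = 0.455), and the decoy receptor Fgfrl1 by -0.73 ± 0.20 (limma, adjusted p = 0.271). In eWAT the ligand-binding receptor Erbb3 differed by 1.42 ± 0.46 (limma, adjusted p = 0.4). Erbb3 was bright in liver, at 11.42 to 12.02 in F1 and 11.52 to 12.03 in CT, and the hepatocyte markers also had higher means in eWAT F1. Erbb3 differed by 1.58 ± 0.40 in the 4 eWAT libraries lowest in hepatocyte transcripts and by 1.26 ± 0.28 in the 4 highest. The part of hepatocyte transcripts in the Erbb3 difference was not tested. Of the kinases and adaptors from Ras to ERK, 1 of 17 genes had an unadjusted p under 0.05 in each tissue, Map2k2 in liver at 0.41 ± 0.18 and Rras in eWAT at 0.45.

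Of the other feedback inhibitors, 12 were kept in liver and 15 in eWAT. Dusp1, a nuclear phosphatase that acts mainly on stress-activated MAP kinases, had a lower mean in F1 in both tissues, with differences of -1.48 ± 0.51 in liver (limma, adjusted p = 0.426) and -0.78 ± 0.26 in eWAT (limma, adjusted p = 0.412). Dusp14 in eWAT ran from 5.96 to 6.46 in F1 and from 5.19 to 5.49 in CT, a difference of 0.81 ± 0.17 (limma, adjusted p = 0.362). Spred3, a relative of Spred1, differed by -1.15 ± 0.36 in eWAT (limma, adjusted p = 0.389).

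The ETS and immediate-early list holds factors that ERK phosphorylates, such as Elk1, and genes that it induces. In liver 13 of 19 kept genes had a higher mean in F1, with a median of 0.11, and in eWAT 14 of 21 had a lower mean, with a median of -0.20. The difference between the tissues' paternal differences was above 0 for 16 of 21 genes, with a median of 0.46 against 0 for all genes, and 6 had an unadjusted p under 0.05, all above 0, against 9.79% of all genes in either direction. None was called. Junb, a subunit of the AP-1 factor, ran from 8.36 to 9.92 in Liver F1 and from 7.45 to 7.88 in Liver CT, a difference of 1.57 ± 0.32 (limma, adjusted p = 0.129; 0.023 to 0.322 over the alternatives). Ets2 went the other way, with 8.91 to 9.56 in Liver F1 and 9.64 to 10.32 in Liver CT. Its difference was -0.65 ± 0.20 (limma, adjusted p = 0.363). Egr1, an immediate-early transcription factor, ran from 10.25 to 15.13 in Liver F1 and from 10.17 to 11.14 in Liver CT, a difference of 2.57 ± 0.83 (limma, adjusted p = 0.374). Without Liver F1 4, the library with exocrine pancreas transcripts, Egr1 differed by 3.51 (limma, adjusted p = 0.0275; 0.0275 to 0.572 over the alternatives). In eWAT Plaur, the urokinase receptor, ran from 6.19 to 7.02 in F1 and from 7.27 to 7.80 in CT, a difference of -0.85 ± 0.21 (limma, adjusted p = 0.369). The 6 kept partners of atypical MAP kinases in liver and the 5 in eWAT included 0 genes at an unadjusted p under 0.05.

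**Figure D5:**
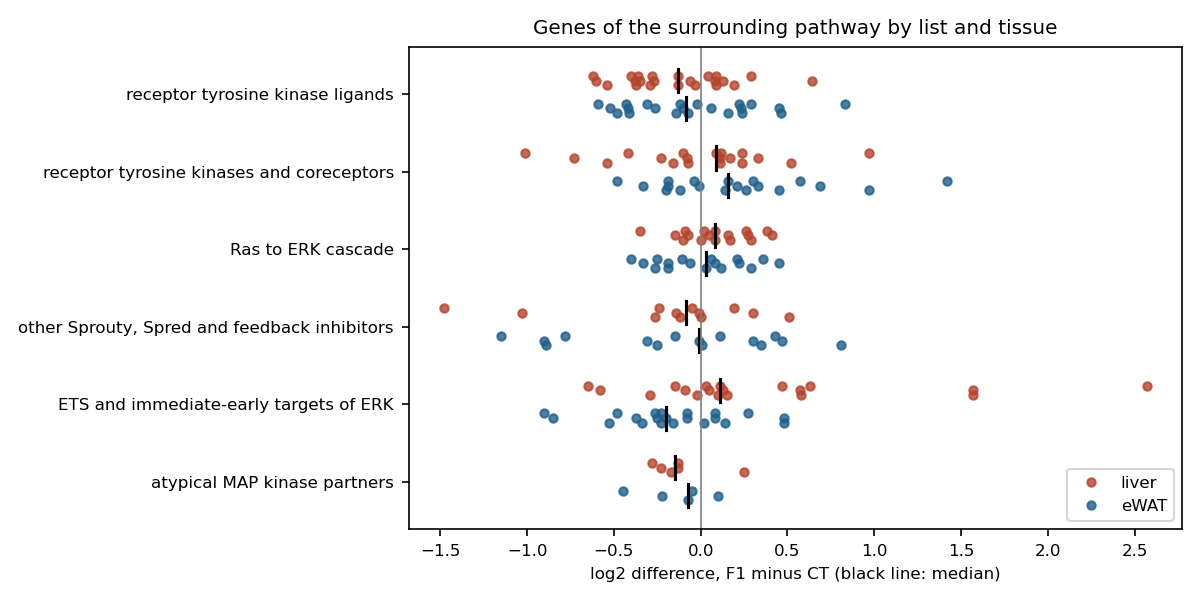
Difference between F1 and CT on the log2 scale for each kept gene of 6 pathway lists, with liver in red above eWAT in blue and the list median as a black line. The ETS and immediate-early list has a median of 0.11 in liver and -0.20 in eWAT, and its highest liver gene is Egr1 at 2.57.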

How the data were processed

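RNA of 16 liver and eWAT samples was hybridised to Affymetrix arrays, 150 ng per sample per the labels' protocols. The authors deposited log2 values, and the submitters' processing notes name RMA and Transcriptome Analysis Console 4.0. Of 22206 probe sets 19572 had 1 symbol and 2634 had none in the platform annotation, and the brightest probe set stood for a gene with several. The genes, lists and tests were chosen with earlier results of these data known. The testis and seminal vesicle lists were added after the data were seen.

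F1 and CT were compared within each tissue with limma 3.58.1 in R 4.3.3 (lmFit, eBayes, Benjamini-Hochberg adjustment over all kept genes, calls under 0.05). Genes with a mean below the mean of the libraries' 25th percentiles (3.90 in liver, 3.47 in eWAT) were left out. The largest gap between sorted values was 0.2 within liver, 0.53 within eWAT and 1.39 to 1.71 between tissues, so tissues were compared after quantile normalization over 16 libraries. Covariation used all 40320 pairings of 8 libraries (SciPy 1.17.1). Named pathway genes are among the 3 of smallest unadjusted p per list and tissue. The limma comparison of F1 and CT within a tissue was tested on simulated data. Of the kept genes given a log2 change of 1.5, it recovered 71 of 87 in liver and 71 of 96 in eWAT. In each tissue 100 genes were given this change and 100 a change of 3, and 8 calls in liver and 10 in eWAT were false. The simulated noise was independent between genes. The recovered shares therefore do not measure how many changes of this size were missed in the real data. Arrays have no read depth, and their number limits the precision. Alternatives were the filter, normalization, limma options, a replicate block and leaving out each library.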

Additional observations from a re-analysis of the deposited data

Results flagged for a closer look

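Dusp6 in Liver CT 3 measured 10.44, far below the other 3 CT livers at 10.93 to 11.02 by Dixon's test. It was the 1 such value among 40 groups of 4 examined, and chance marks about 1 in 20. The paternal difference of Spry4 in liver minus that in eWAT was 3.07, because every F1 liver lay above and every F1 fat sample below its CT counterparts. Spry4 was chosen for this difference, so it is given as a description with no p-value.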

How the results depend on the processing

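The F1 and CT values of Spry4 in both tissues and of Mapk4 in eWAT did not overlap, which fixed their direction when libraries were left out. The sizes of the paternal differences of Spry4 ran from 1.42 to 1.80 in liver (16 alternatives) and from -1.80 to -1.19 in eWAT (19). Those of Mapk4 in eWAT ran from 1.53 to 2.36 (18, since the filter at the 50th percentile dropped it). Of these alternatives, the filter, the trend and robust settings, the replicate block and the fit over 16 samples could not change a size. Liver calls, 23 over all genes, became 74 with trend and robust settings, 48 in a fit over 16 samples, 6 with the replicate block and 7 to 24 without 1 library (7 without F1 3 or CT 2, 8 without CT 4, 10 without F1 2 or CT 3). eWAT calls, 0, became 29 in the fit over 16 samples and 0 to 1 without 1 library (1 without F1 4 or CT 4). Calls for the difference between tissues, 12, ran from 7 to 27 without 1 library (27 without eWAT F1 3, 22 without Liver F1 4, 7 without eWAT CT 3). The causes were not tested. Dusp6 in liver minus eWAT was -0.76 on the deposited scale, against 0.14 after quantile normalization. Junb in liver passed with trend and robust settings (limma, adjusted p = 0.0328), over 16 samples (0.023) and without Liver F1 1 (0.047). The replicate numbers are the same in every group, so the replicate block could not change the sizes of the differences. Those of Spry4 stayed at 1.58 and -1.49 and that of Mapk4 at 1.94. The SE of Spry4 in liver was 0.36 with the block, against 0.31 without it. Deviations of same-numbered F1 and CT samples correlated at -0.05 to 0.05 in liver and -0.26 to 0.18 in eWAT, so the numbers were not taken as pairs. Same-numbered liver and eWAT samples correlated best with each other in 4 of 4 F1 and 3 of 4 CT cases, at 0.01 to 0.04, a hint from the data only. Dim probe sets such as Mapk4 in liver give no usable level.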
